A study of Schizosaccharomyces pombe with 4 samples.

Results

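Poly(A) RNA of S. pombe fas S.j. cells was compared with that of wild-type S. pombe grown at 30°C, and the genes with less mRNA in fas S.j. are described here. The authors' Cuffdiff table for 30°C holds 285 genes, and all of them were taken. They are 5.54% of the 5143 genes that have a row in the authors' table for 24°C. In each of the 285 rows FPKM (the number of sequenced fragments of a gene, divided by transcript length and library size) is lower in fas S.j., and the log2 of the ratio of the deposited values reaches at most -0.50. The table is thus a list of falls, and a gene outside it has no value at 30°C here and cannot be called unchanged or higher.

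In fas S.j. cells the open reading frames of fas1 and fas2, for the subunits of the cytosolic fatty acid synthase, are those of S. japonicus, placed between the untranslated regions of the S. pombe genes and next to drug-resistance markers. Wild-type cells carry the S. pombe genes. Both strains were growing exponentially in the rich medium YES, at 30°C, and in a separate pair of cultures at 24°C. There is 1 library per strain and temperature, 4 in all, so no difference given here has a replicate check and none was tested. A change is log2 of FPKM + 1 in fas S.j. over FPKM + 1 in wild type, a scale that shrinks the changes of weakly expressed genes. A gene at -0.80 or lower is called past the limit, after the fold criterion of the study. Normalization was done for each temperature by itself, so levels are compared only within a temperature. The tables hold no read counts, and the depth of the libraries at 30°C is unknown.

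Fission yeast ferments glucose but also respires. Dehydrogenases of the inner mitochondrial membrane pass electrons to a quinone, complex III hands them to cytochrome c, complex IV gives them to oxygen, and ATP synthase uses the proton gradient. Fission yeast has no proton-pumping NADH dehydrogenase and oxidises NADH with enzymes such as Nde1. Most subunits are encoded in the nucleus. When nitrogen runs low, fission yeast also switches on uptake systems for poor nitrogen sources and, through the transcription factor Ste11, the genes of mating and meiosis. Iron, phosphate and uracil have uptake systems of their own that are regulated by supply.

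Several gene lists had a larger share in the table than the 5.54% of all genes. Among them were complex III with cytochrome c, complex IV, ATP synthase, and mating and early meiosis. The lists for uracil, nitrogen sources, iron and phosphate and for core histones (6 of 10) were also above it. By annotation, the largest functional group among the 285 genes was the respiratory chain, ATP synthase and their assembly, with 41 genes (14.4%), of which 20 were past the limit. Chromatin and transcription followed with 30 genes, membrane transport outside mitochondria with 27, mating, meiosis and sporulation with 23, translation and the ribosome with 23, carbon and amino acid metabolism with 22 and other mitochondrial functions with 21. A further 31 genes were uncharacterized or not grouped. The size of the fall differed between groups. Of the 285 genes, 87 (30.5%) were past the limit. Among them were 11 of 22 carbon and amino acid genes, 11 of 27 transport genes and 10 of 23 mating and meiosis genes. The ungrouped genes had 13 of 31, chromatin and transcription 4 of 30, translation 2 of 23 and other mitochondrial functions 0 of 21. The groups were made from the annotation after the table had been seen and are a description. They cover listed genes only, so no share of all genes stands beside them.

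Most falls were small. Without fas1 and fas2, 114 genes lay above -0.60, 84 between -0.80 and -0.60, 35 between -1 and -0.80, 29 between -1.5 and -1, 13 between -2 and -1.5 and 8 at -2 or lower. The genes just inside the limit were hsp104 (-0.84), mug123 (-0.84), bqt2 (-0.81), glm1 (-0.81) and cox13 (-0.81). Just outside it were tgd1 and ste7 (-0.80 each after rounding), qcr7 (-0.79), sec1 (-0.79) and mam4 (-0.79). Expression was moderate to high for most of them, with a mean of at least 10 FPKM for 230 genes, from 1 to 10 for 44 and below 1 for 11, and a median of 32.1 in fas S.j. and of 52.7 in wild type. Loci that Cuffdiff built from more than 1 gene, in which reads can be given to either gene, held 155 of the 285, or 54.4%, against 54.1% of all genes.

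**Figure D1:**
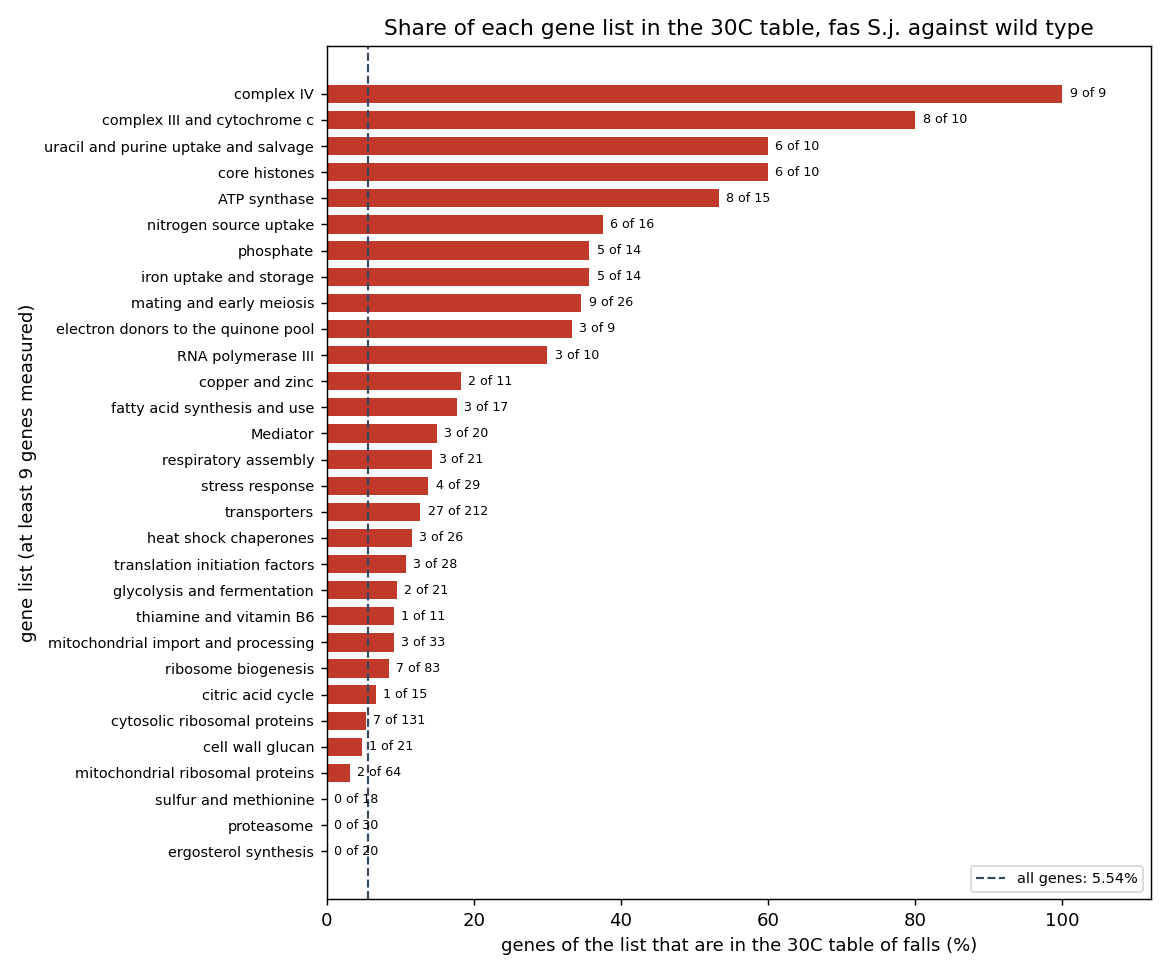
Bars give the percent of the genes of a list that are in the 30°C table of falls, with the count beside each bar. The dashed line marks the 5.54% of all genes. Lists with at least 9 measured genes are drawn, apart from some mitochondrial lists. Left out were genes with mitochondrial in their annotated product (6 of 101, 5.94%) and a short list of the mitochondrial ribosome (0 of 11). The lists of complex IV (9 of 9) and of complex III with cytochrome c (8 of 10) stand at the top, and 0 of 20 genes of ergosterol synthesis and 0 of 30 of the proteasome are in the table.

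The replaced genes check the labels. The FPKM of fas2, for the alpha subunit, was 0.832 in fas S.j. against 347 in wild type, and that of fas1, for the beta subunit, was 16.6 against 344. Changes were -7.57 and -4.30, so both libraries fit their labels. The authors mapped reads to the S. pombe genome, so these values do not measure mRNA of the S. japonicus reading frames. Of the 17 measured genes of fatty acid synthesis and use, 3 were listed (17.6%, beside 5.54% of all genes), among them the replaced fas1 and fas2. The third was cbr1, a cytochrome b5 reductase gene, at 99.7 FPKM in fas S.j. against 150 in wild type. All 20 measured genes of ergosterol synthesis were absent from the table.

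**Figure D2:**
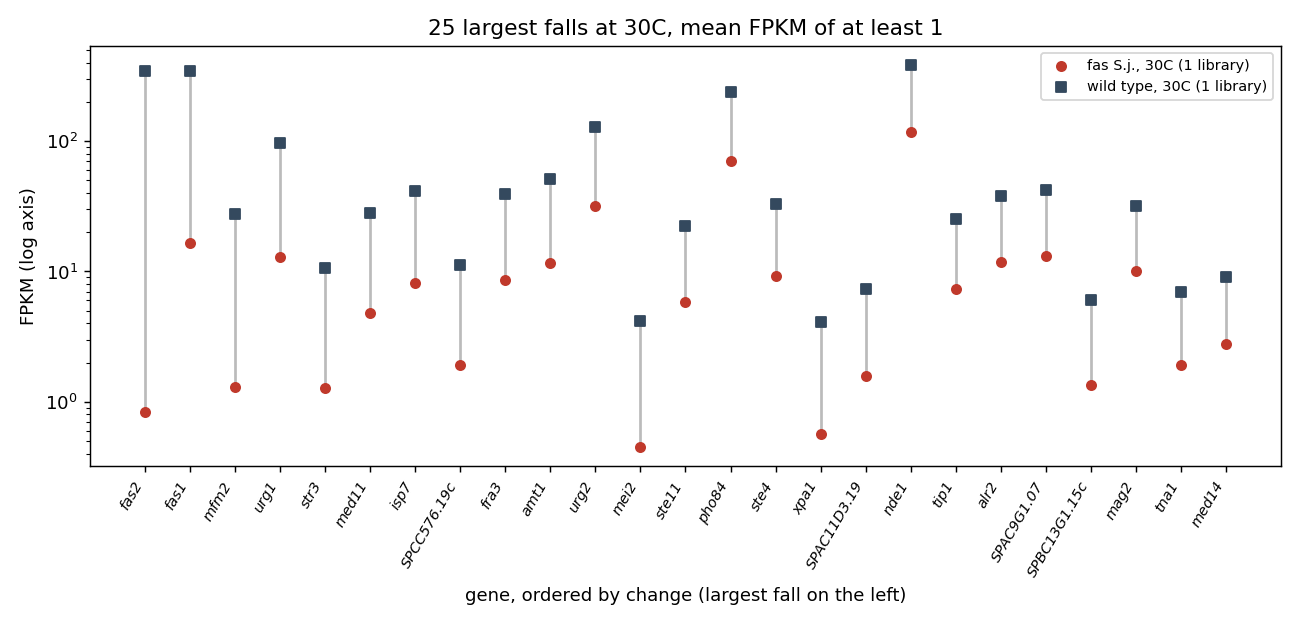
Points are the FPKM, on a log axis, of the 25 largest falls at 30°C, left to right, where the mean of both libraries is 1 FPKM or more, each gene with 1 library of fas S.j. (circles) and 1 of wild type (squares). Changes range from -7.57 for fas2 to -1.41 for med14, and the genes include mating, nutrient uptake, Mediator and uncharacterized genes.

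Nuclear genes of the later steps of respiration lost mRNA together, each by a modest amount. Of 34 measured genes of complexes III to V and cytochrome c, 25 were in the table (73.5%, against 5.54% of all genes), with a median change of -0.75, and 10 of them were past the limit. Complex III oxidises the quinone. In the list of complex III with cytochrome c, 8 of 10 genes were in the table, all of them of complex III. The Rieske iron-sulfur protein gene rip1 was lowest, at 71.5 FPKM in fas S.j. against 164 in wild type, a change of -1.19. The core protein gene qcr2 had 130 against 254 FPKM (-0.96), and the gene of the heme protein cytochrome c1, cyt1, had 219 against 416 FPKM (-0.93). The subunit genes qcr10 (-0.93), qcr1 (-0.86), qcr7 (-0.79), qcr8 (-0.70) and qcr6 (-0.66) completed the 8. The genes of the list outside the table were qcr9, with 204 FPKM in fas S.j. against 189 in wild type at 24°C, and that of cytochrome c, cyc1, with 387 and 315 FPKM.

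Complex IV, the oxidase, was covered whole. All 9 measured nuclear genes were listed, from -1.12 to -0.55. The lowest was SPCC417.16, which the annotation names a subunit of an NADH:ubiquinone reductase and which was counted here with complex IV, at 203 FPKM in fas S.j. against 441 in wild type. Next came cox5, at 204 against 408 FPKM (-0.99), cox9, at 107 against 192 (-0.84), and cox13, at 87.2 against 153 (-0.81). The other five were cox12 (-0.78), cox6 (-0.75), cox4 (-0.70), cox8 (-0.68) and cox7 (-0.55).

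For ATP synthase, 8 of 15 genes were listed and 1 was past the limit, atp20, for a subunit of the membrane part, at 41.5 FPKM in fas S.j. against 94.2 in wild type (-1.16). Other listed genes of the membrane part and the stalk were tim11 (-0.68), atp17 (-0.59), atp18 (-0.56), atp5 (-0.53) and atp7 (-0.51). The inhibitor gene inh1 (-0.56) was listed too. Genes outside the table included atp3, atp4, atp14, atp15, atp16 and atp19. Of the catalytic head, atp2, for the beta subunit, was listed at 675 against 1006 FPKM (-0.57), whereas atp1, for the alpha subunit, was not listed and had 224 FPKM in fas S.j. against 233 in wild type at 24°C.

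Upstream of the quinone the falls were fewer and deeper. Of 9 measured electron donor genes 3 were listed, all past the limit. The NADH dehydrogenase gene nde1 had 118 FPKM in fas S.j. against 383 in wild type, a change of -1.69. The proline dehydrogenase gene put1 had 120 against 295 FPKM (-1.29), and the glycerol-3-phosphate dehydrogenase gene gut2 had 49.96 against 92.97 FPKM (-0.88). The succinate dehydrogenase genes sdh1, sdh2 and sdh3 were not listed. At 24°C they were higher in fas S.j., sdh2 most, with 159 FPKM against 82.8 in wild type. From the citric acid cycle, 1 of 15 genes was listed (6.67%), the citrate synthase gene cit1, at 141 against 207 FPKM (-0.55).

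**Figure D3:**
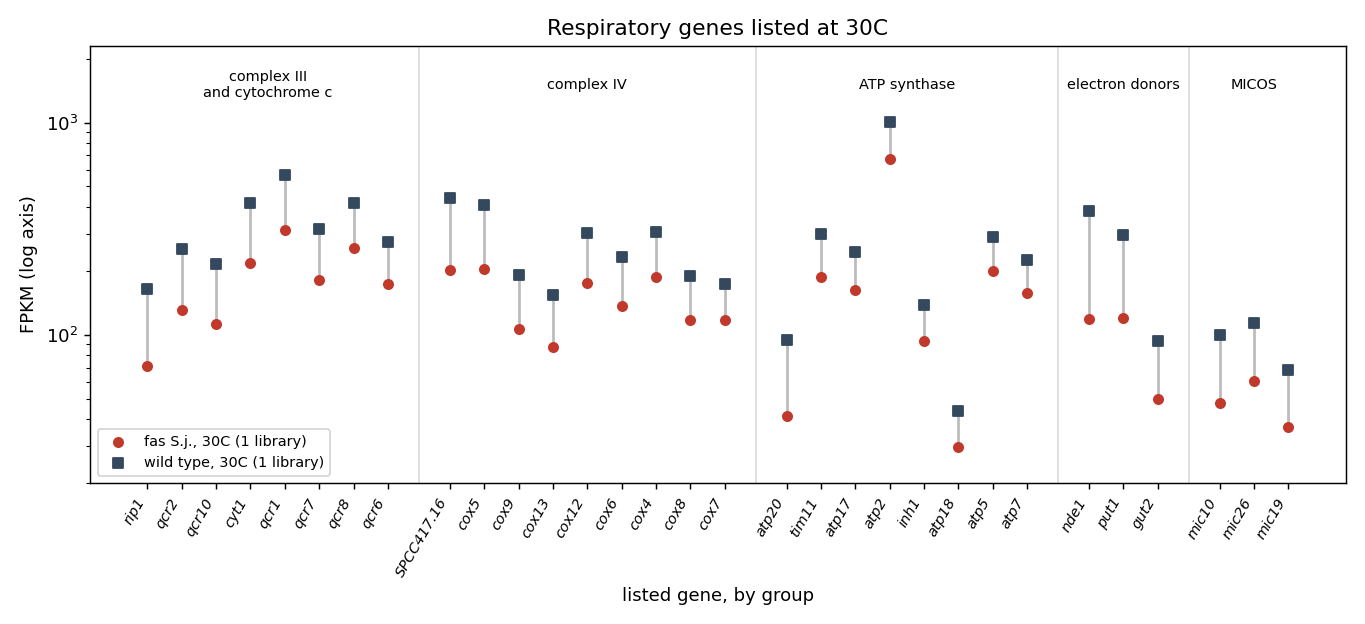
FPKM at 30°C on a log axis for the listed genes of complex III with cytochrome c, complex IV, ATP synthase, the electron donors and MICOS, with 1 library of fas S.j. (circles) and 1 of wild type (squares) per gene. The fas S.j. circle lies below the wild-type square for each gene, as the table requires, and the gap is widest for nde1 (118 against 383 FPKM).

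Genes that shape the inner membrane or serve its complexes were also lower. MICOS, the complex that holds cristae at the inner boundary membrane, had 3 of 4 genes listed, all past the limit (a list made after the table had been seen). The genes were mic10, at 47.6 FPKM in fas S.j. against 99.8 in wild type (-1.05), mic26, at 60.5 against 114 (-0.90), and mic19, at 36.7 against 67.9 (-0.87). The ATP:ADP antiporter gene anc1, which exchanges ATP made in mitochondria for cytosolic ADP, had 434 against 807 FPKM (-0.90). Its counterpart for phosphate, SPBC1703.13c, annotated as a phosphate transporter, had 236 against 440 (-0.90). Of 21 measured respiratory assembly genes 3 were listed (14.3%), coa2 (-0.95), cbp3 (-0.89) and cox10, for the enzyme that begins heme A synthesis (-0.51).

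Other parts of the mitochondrion had listed genes in protein import, in the mitochondrial ribosome and in translation factors. Of 33 genes of protein import and processing 3 were listed (9.09%), qcr1, which is also a complex III gene, tom5 (-0.65) and tom70 (-0.50), both of the outer membrane translocase. Mitochondrial ribosomal proteins had 2 of 64 genes listed (3.12%), mrpl16 (-0.67) and mrpl23 (-0.60), beside 5.54% of all genes. Mitochondrial translation factors had 3 of 5, mef1 (-0.66), mti2 (-0.61) and mti3 (-0.58), and hsp78, for a mitochondrial disaggregase, was at -0.64. The lists of mitochondrial ribosomal proteins and of translation factors were made after the table had been seen.

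The sequence CCAAT, on either strand, is bound in yeasts by the Php (Hap) complex, a regulator of respiratory genes. Of its 4 measured genes, a list made after the table had been seen, 1 was listed. This was php5, at 56.5 FPKM in fas S.j. against 88.6 in wild type (-0.64). At 24°C php2 (0.28) and php4 (0.15) were higher in fas S.j., and php3 (-0.10) and php5 (-0.32) were lower. Windows of 300 bases, 250 before and 50 after the annotated start of each gene, were searched for CCAAT in the RefSeq sequence of ASM294v3. The motif was in 8 of 10 windows of complex III and cytochrome c, in 5 of 9 of complex IV, in 7 of 15 of ATP synthase, in 135 of 283 of the listed genes (47.7%) and in 2162 of 5105 of all genes (42.4%). A match is a description of the letters and no evidence of binding. The stretches below are examples from the best covered complexes, and not every match is shown. Each gives 30 bases before the start of a listed gene, on the strand of the gene. The motif (CCAAT, or ATTGG where it is on the other strand) is in capitals.
qcr2, chrIII:96565-96594, plus strand: taacgcaactggCCAATtcaaactttgtca
qcr10, chrII:2884223-2884252, plus strand: attttctaatacCCAATaggggagaacgga
cyt1, chrII:2073166-2073195, plus strand: gattcctgtatgCCAATtatcgtcgggaaa
qcr6, chrII:4345571-4345600, minus strand: atcaaatgcggaCCAATatagcgaacggtt
qcr1, chrII:2034969-2034998, minus strand: taaatgggatcaATTGGtcatttgccgaaa
qcr8, chrI:4767013-4767042, plus strand: gtctgaattattATTGGtctagcagacccg
SPCC417.16, chrIII:1703596-1703625, minus strand: tttcgttggtttATTGGgtttctgccattt
cox4, chrI:711088-711117, plus strand: ggcaatagtaatATTGGaacttccccatta

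These matches lie from 31 bases (qcr8) to 135 bases (cox4) before the annotated start. Matches nearer to the start, in qcr7 (29 bases), cox7 (28) and cox5 (22), are not shown. The listed genes rip1, cox9, cox13, cox12, cox6 and cox8 had no match before the start, although their changes lie in the same range, from -1.19 for rip1 to -0.68 for cox8.

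Genes of mating and early meiosis included mfm2, the deepest fall outside fas1 and fas2. Of 26 measured genes of this list 9 were in the table (34.6%, against 5.54% of all genes), with a median change of -1.19, and 7 were past the limit. The pheromone gene mfm2, for a precursor of the M-factor that M cells secrete, had 1.31 FPKM in fas S.j. against 27.5 in wild type, a change of -3.63. Its paralogs mfm3, at 188 against 431 FPKM (-1.19), and mfm1, at 1.78 against 5.26 (-1.17), are near-identical copies of each other, so their reads may not have been separated. The master regulator gene ste11 had 5.87 against 22.4 FPKM (-1.77). Entry into meiosis needs the RNA-binding protein Mei2, whose gene had 0.447 against 4.14 FPKM (-1.83).

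The other listed genes of this list belong to the pheromone response. The gene of Ste4, an adaptor of its MAP kinase cascade, had 9.29 FPKM in fas S.j. against 33.0 in wild type (-1.72). The transcription factor gene map1 had 1.72 against 4.58 (-1.04), ste7, for an arrestin-related protein, 6.69 against 12.4 (-0.80), and gpa1, for the G protein alpha subunit of the pheromone receptors, 18.8 against 26.7 (-0.48). Outside the list, mam4, for the methyltransferase that matures M-factor, had 36.8 against 64.1 (-0.79). At 24°C fas S.j. had less mRNA of these 5 genes as well, by changes from -1.79 to -0.86.

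The labels do not give the mating type of the cultures, and M-factor genes are active in M cells. The study's strain list has wild type as h-, and fas S.j. both as an h+ prototroph and as an h- auxotroph that lacks ura4, without saying which was sequenced. At 24°C ura4, in a locus with 1 other gene, had 165 FPKM in fas S.j. against 139 in wild type. Of genes that mark P cells, map2, for the P-factor precursor, had 2.26 FPKM in fas S.j. against 1.47 in wild type at 24°C, and map3, for the M-factor receptor, had 6.88 and 3.79. Of genes that mark M cells, mam2, for the P-factor receptor, had 32.6 FPKM in fas S.j. against 43.2 in wild type at 24°C. Other genes of the mating list went both ways at 24°C. In fas S.j., mam1 (-1.68) and mam3 (-0.62) were lower, sxa2 (1.02) was higher and map4 (-0.05) was nearly equal. Like ura4, the genes map2, map3 and mam2 share their loci with other genes. The M cell regulator gene mat1-Mc was listed at 0 in both libraries at 24°C. In bulk RNA, fewer cells that express a gene and less mRNA per cell cannot be told apart. For the mfm genes and other genes whose mRNA depends on mating type, a difference in mating type between the strains and the replaced genes cannot be told apart.

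Ste11 recognises a box with the core TTTGTT. This core, on either strand, was in the 300-base windows of 9 of the 9 listed mating genes, in 21 of 26 of the list, in 149 of 283 of the listed genes (52.7%) and in 2571 of 5105 of all genes (50.4%), so it is frequent by itself. For map1 it was not among the bases before the start. The stretches are shown for the 8 listed genes that have it there, with the core (TTTGTT, or AACAAA on the other strand) in capitals.
mfm2, chrI:2913311-2913340, minus strand: aataggcaaatgAACAAAgagatcacagtt
mei2, chrI:4515143-4515172, minus strand: ttttaaagtttcTTTGTTttacaaaccctt
ste11, chrII:3983240-3983269, plus strand: aagttgaatttcTTTGTTtgattttcattg
ste4, chrI:1296577-1296606, minus strand: gagtatgctttcTTTGTTataaaagtagtg
mfm3, chrII:700313-700342, plus strand: tcttttacccttTTTGTTgacatttcgttt
mfm1, chrI:4916924-4916953, plus strand: atgggtccgaccAACAAAgaagtctcagtt
ste7, chrI:453632-453661, minus strand: ttgttgattttcTTTGTTtgaaaatggagc
gpa1, chrII:2329621-2329650, plus strand: aagtaaaaagccTTTGTTtctgtaattgtt

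The core begins 78 bases before the annotated start in mfm2, 79 in mfm1 and 39 in mfm3. It begins 135 bases before the start in mei2, 124 in ste11, 51 in ste4, 88 in ste7 and 77 in gpa1.

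Later meiotic and sporulation genes gave small falls at low levels. Named examples are mug123, at 1.31 FPKM in fas S.j. against 3.12 in wild type (-0.84), and bqt2, for a protein of the telomere bouquet, at 0.768 against 2.11 (-0.81). Its partner gene bqt1 had 3.25 against 5.43 (-0.60).

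Uptake and salvage of uracil and purines had 6 of 10 measured genes in the table, 4 of them past the limit, with a median change of -1.28. The uracil-regulated gene urg1, annotated as a GTP cyclohydrolase II, had 12.9 FPKM in fas S.j. against 97.5 in wild type (-2.83). Its neighbours urg2, a putative uracil phosphoribosyltransferase gene, and urg3 had 31.7 against 129 (-1.99) and 47.9 against 109 FPKM (-1.17). The transporter gene SPBC887.17 had 44.1 against 117 (-1.38), uck2, annotated as a uracil phosphoribosyltransferase, 32.1 against 50.7 (-0.64), and the uracil transporter gene fur4 50.2 against 74.0 (-0.55).

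Of 16 measured genes for the uptake or use of nitrogen sources 6 were listed (37.5%), 5 past the limit. They include put1, also counted with the electron donors. The gene isp7, for an oxygenase and grouped above with mating and meiosis, had 8.22 FPKM in fas S.j. against 41.8 in wild type (-2.21). The ammonium transporter gene amt1 had 11.7 against 51.0 FPKM (-2.04). Besides put1, the list held the amino acid permease gene SPAC1039.01, at 18.8 against 34.9 (-0.86), the peptide transporter gene ptr2, at 55.1 against 99.9 (-0.85), and isp5, at 2.37 against 4.20 (-0.63). The permease genes put4, per1 and isp4 were not in the table, though at 24°C they were lower in fas S.j. (-1.68, -1.60 and -1.39).

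Iron genes were listed in 5 of 14 cases (35.7%). The siderophore transporter gene str3 had 1.28 FPKM in fas S.j. against 10.6 in wild type (-2.35), and str1 had 60.9 against 139 (-1.18). The gene of the glutaredoxin Grx4, which takes part in iron sensing, had 109 against 187 (-0.77). The heme uptake gene shu1 stood at 0.202 against 0.739 (-0.53) and the iron permease gene fip1 at 55.8 against 80.3 (-0.52). The partner of fip1, the ferroxidase gene fio1, was not listed, and had 205 FPKM in fas S.j. against 413 in wild type at 24°C. The sequence GATAA, the core of GATA factor sites, was in 11 of 14 windows of iron genes and 14 of 16 of nitrogen genes, beside 3030 of 5105 of all windows (59.4%).

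Phosphate genes gave 5 of 14 (35.7%). The phosphate transporter gene pho84 had 70.7 FPKM in fas S.j. against 239 in wild type (-1.74), and the secreted acid phosphatase gene pho1 had 73.9 against 138 (-0.89). Smaller falls were those of the alkaline phosphatase gene pho8 (-0.60), of the transporter gene pho842 (-0.56) and of the acid phosphatase gene pho4 (-0.51), which was also the 1 listed gene of 11 for thiamine and vitamin B6. Zinc transport was represented by zrt1, at 90.4 against 156 FPKM (-0.78), and zip3, at 61.1 against 99.1 (-0.69). In the copper and zinc list, 2 of 11 genes were in the table, zrt1 and the alcohol dehydrogenase gene adh4 (-0.61).

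Counting all genes that the annotation calls transporters, carriers, permeases, symporters or antiporters, 27 of 212 were listed (12.7%), 13 of them past the limit. Examples outside the lists above were the nicotinic acid transporter gene tna1, at 1.93 FPKM in fas S.j. against 6.95 in wild type (-1.44), the MatE family gene SPAC323.07c, at 23.9 against 51.4 (-1.07), and the spermine family transporter gene SPBC409.08, at 333 against 632 (-0.92).

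In carbon metabolism the listed genes were a minority of each gene list. Of 21 measured genes of glycolysis and fermentation 2 were listed (9.52%). They were adh4 and gpd3, one of a pair of glyceraldehyde 3-phosphate dehydrogenase genes, at 333 FPKM in fas S.j. against 785 in wild type (-1.24). The other gene of the pair, tdh1, is a near-identical copy and was not listed. The list of glycerol metabolism and gluconeogenesis had 3 of 8 genes in the table. They were gut2, dak1, at 124 against 251 FPKM (-1.01), and dak2, at 7.87 against 12.9 (-0.65). The genes gld1, gpd1, gpd2, pck1 and fbp1 of that list were not in the table. The galactose genes gal7, at 16.996 against 42.96 (-1.29), and gal10, at 1.68 against 4.004 (-0.90), were 2 of 5 listed, and both lie in a shared locus.

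Amino acid enzymes were led by the X-Pro dipeptidase gene xpa1, at 0.567 FPKM in fas S.j. against 4.12 in wild type (-1.71), where 3 genes share the locus, and by the alanine racemase gene alr2, at 11.7 against 37.6 (-1.60). The NADP-specific glutamate dehydrogenase gene gdh1, of ammonium assimilation, had 286 against 525 FPKM (-0.87).

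Chromatin and transcription genes formed a large group of small falls, with 4 of 30 past the limit. Core histones were listed in 6 of 10 cases, between -0.74 for hhf3, at 455 FPKM in fas S.j. against 758 in wild type, and -0.53 for hhf1. The others were hht3 (-0.61), hta1 (-0.60), hht1 (-0.53) and hta2 (-0.53). Copies of the H3 and H4 genes are near-identical, so reads may have been divided between them. At 24°C these 6 genes were close to equal in both strains, with changes from -0.17 to 0.19.

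The deeper falls of this group were of subunits of the transcription machinery. The Mediator subunit gene med11 had 4.83 FPKM in fas S.j. against 28.3 in wild type (-2.33) and med14 had 2.80 against 9.07 (-1.41), while srb4 was at -0.55. These are 3 of 20 measured Mediator genes (15%), and each shares its locus. RNA polymerase III had 3 of 10 genes listed, rpc17, at 13.9 against 36.0 FPKM (-1.31), rpc31 (-0.55) and rpc11 (-0.53). RNA polymerase I had 1 of 6, rpa43 (-0.65). The chromatin remodeller gene rsc4 had 6.51 against 15.02 FPKM (-1.09). These polymerase and Mediator lists were made after the table had been seen.

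Translation contributed highly expressed genes with falls near the edge of the table. Cytosolic ribosomal proteins were listed in 7 of 131 cases (5.34%, close to the 5.54% of all genes) and none was past the limit. The lowest were rpl4102, at 4370 FPKM in fas S.j. against 6936 in wild type (-0.67), rpl4101 (-0.62) and rpl2502 (-0.56). Outside that list, rpp202, for the acidic ribosomal protein P2, was at -0.69. Ribosome biogenesis had 7 of 83 (8.43%), led by rrp7 (-0.62) and tsr2 (-0.54), and initiation factors 3 of 28 (10.7%), tif213 (-0.56), tif313 (-0.55) and sum1 (-0.52). The SBDS family gene rtc3 had 303 against 564 FPKM (-0.89), and set10, for a methyltransferase of ribosomal proteins, 10.3 against 25.01 (-1.20).

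Chaperones and stress regulators appeared singly. Of 26 heat shock and chaperone genes 3 were listed (11.5%), the disaggregase gene hsp104, at 79.5 FPKM in fas S.j. against 143 in wild type (-0.84), hsp78 and the Hsp70 gene ssa1 (-0.51). The stress response list gave 4 of 29 (13.8%), the kinase gene ppk1, at 6.27 against 14.2 (-1.06), pcr1, for the partner of the stress transcription factor Atf1 (-0.76), pyp2, for a phosphatase of the stress MAP kinase (-0.70), and rds1 (-0.69). Cell wall glucan synthesis and remodelling gave 1 of 21, exg1 (-0.72). Sulfur and methionine genes gave 0 of 18, and the proteasome 0 of 30.

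Several falls were of neighbouring genes. Among 5074 protein-coding genes in chromosomal order, 56 of the 283 listed genes with an annotation (19.8%) stood beside another listed gene. They formed 25 runs, 21 of 2 genes and 4 of 3 or more. No matching share over all genes was computed, so the 19.8% is a description and cannot be called high or low. A run of 4 held tna1, urg2, urg3 and urg1 (chromosome I, 1827612 to 1837060 in ASM294v3), with changes from -2.83 to -1.17. Another run of 4, near the left end of chromosome I (62951 to 75910), held SPAC977.15, dak2, SPAC977.17 and SPAPJ695.02. Runs of 3 held ecl3, pho84 and pho1 (chromosome II, 4441340 to 4449053) and gal7, tgd1 and gal10 (chromosome II, 4482234 to 4487535). Pairs included shu1 and str3, uck2 and fur4, the divergent histone pairs hhf1 and hht1 and hht3 and hhf3, and inh1 and put1. Where neighbours share a locus, Cuffdiff can pass reads between them. The listed genes were spread over the chromosomes much as all genes were, with 43.1% on chromosome I, 38.5% on II and 18.4% on III, against 45.5%, 36.5% and 18.02% of all genes.

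The cultures grown at 24°C share no library with those at 30°C, and all 285 genes have a row there. Their median change at 24°C was -0.36, beside 0.00 over all 5143 genes. Of the 285, 243 had a change below 0 at 24°C (49.3% of all genes were), 91 were at -0.50 or lower (4.12% of all genes) and 57 were at -0.80 or lower (2.06% of all genes). With the ratio limit of the 30°C table applied at 24°C, 236 genes had a log2 ratio of -0.50 or lower and 101 of them were in the 30°C table, which is 42.8% of the 24°C genes and 35.4% of the 30°C genes. A further 17 genes, listed at 0 in fas S.j. at 24°C, have no finite ratio.

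**Figure D4:**
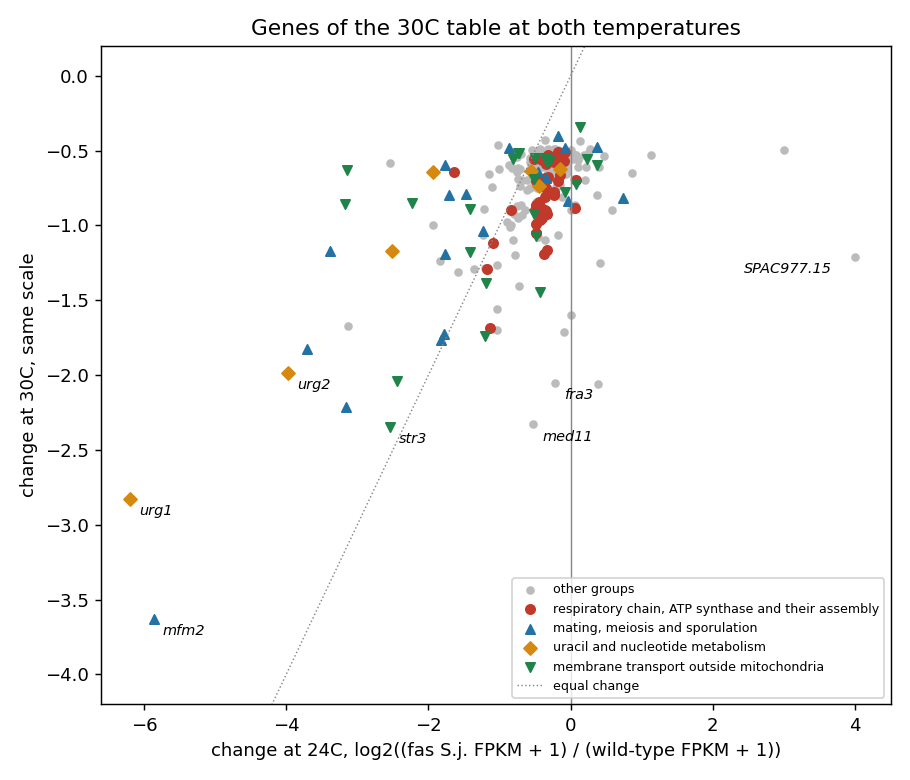
Each point is a listed gene whose mean FPKM is 1 or more in each pair of libraries, without fas1 and fas2 (267 genes), with its change at 24°C on the horizontal axis and at 30°C on the vertical axis, both as log2 of FPKM + 1 in fas S.j. over FPKM + 1 in wild type. Uracil and mating genes reach furthest left (urg1 at -6.19, mfm2 at -5.86), respiratory genes gather between -1.64 and 0.07 on the horizontal axis, and SPAC977.15 lies furthest right at 4.01.

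Groups differed in how their change at 24°C compared with that at 30°C. The 7 uracil and nucleotide genes had a median of -1.93 at 24°C beside -0.73 at 30°C, and each of the 7 was lower in fas S.j. in both cases. For urg1 the FPKM at 24°C was 8.30 in fas S.j. against 679 in wild type (-6.19). The 23 mating, meiosis and sporulation genes had medians of -0.86 and -0.79, with 19 lower at 24°C. Here mfm2 had 0.740 against 100 FPKM (-5.86) and mei2 2.86 against 49.6 (-3.71). In the 27 transport genes the medians were -0.52 and -0.69.

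The 41 respiratory genes went the other way, with a median of -0.36 at 24°C beside -0.79 at 30°C. Of the 41, 39 had a change below 0 there and 6 were at -0.50 or lower. The 6 were hmt2 (-1.64), put1 (-1.17), nde1 (-1.13), SPCC417.16 (-1.09), anc1 (-0.84) and mba1 (-0.52), so the subunits of complex III and ATP synthase stayed above that value. Taking all 34 measured genes of complexes III to V and cytochrome c, listed or not, 31 were lower at 24°C, their median being -0.29, and 1 gene at -0.50 or lower. Because genes were taken for their fall at 30°C, a smaller change at 24°C is partly built into the selection, and no test of a difference between temperatures was made.

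Over the 267 genes with a mean of 1 FPKM or more in each pair of libraries, fas1 and fas2 left out, the changes at both temperatures correlated with a Pearson's r of 0.58 and a Spearman's rho of 0.43. Among the 41 respiratory genes r was 0.48 and rho 0.53, among the 23 translation genes 0.07 and 0.01. These are correlations across genes of the same 4 libraries, chosen for a fall at 30°C, and genes are not independent replicates.

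Some of the largest falls went with a smaller change at 24°C. Of the 25 genes with the largest falls, 8 were above -0.60 at 24°C. Of these 8, 6 share their locus, beside 54.1% of all genes, and so few genes cannot show a difference in that share. The gene fra3, in a locus of 3 genes, had 8.67 FPKM in fas S.j. against 39.1 in wild type at 30°C (-2.05) and 49.6 against 58.0 at 24°C (-0.22). SPCC576.19c, in a locus of 2, had 1.93 against 11.2 FPKM at 30°C (-2.06) and 9.23 against 6.87 at 24°C (0.38). SPAC9G1.07, in a locus of 4, had 13.2 against 42.1 at 30°C (-1.60) and 28.7 against 28.5 at 24°C (0.01). The others in shared loci were xpa1, med11 and SPBC13G1.15c. Of the 25, 11 are in shared loci, 22 had a change below 0 at 24°C and 16 were at -0.80 or lower there.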

How the data were processed

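Poly(A) RNA of S. pombe fas S.j. and wild type, 1 library each at 30°C and 24°C, had been sequenced with a strand-specific kit. The authors mapped reads with TopHat and compared strains with Cuffdiff on Galaxy, and the deposited FPKM values are its output. Versions and the genome build are not given in the sources used here, and the instrument differs between the paper and the labels. The tables also hold the authors' fold changes, test statistics, p-values and q-values, which were not used, and the 30°C table has 1 side column of copied fold changes, also not used.

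Changes (log2 of FPKM ratios) were computed with a pseudocount of 1. Genes past -0.80 were counted, and gene lists were described by counts and medians beside all genes, with no test. Members and lists were chosen with earlier results of these data known. Of 5143 identifiers, 5106 matched RefSeq ASM294v3 (283 of the 285). Before use, 4 genes were dropped from lists whose name their annotation contradicts. SPCC417.16 was kept with complex IV, although its annotation names a subunit of an NADH:ubiquinone reductase. Genes were named by rule: fas1, fas2, the 25 lowest changes, at least the 4 lowest of each list, the 5 on each side of the limit, and those higher by 0.50 at 24°C. Other genes were named as examples after their values were seen. Near-identical copies had at least 90% identity over 50% of the coding length (blastn 2.17.0). Alternatives were a pseudocount of 0.1, a limit of 1, a minimum mean FPKM of 10, genes alone in their locus, centring at 24°C and promoters without the bases after the start. Tables were handled with pandas 2.3.3 and numpy 2.4.6 in Python 3.11.15, correlations with scipy 1.17.1, and the computation was tested on simulated data.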

Additional observations from a re-analysis of the deposited data

Results flagged for a closer look

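Among listed genes whose mean reached 1 FPKM in each pair of libraries, 5 were higher in fas S.j. by 0.50 or more at 24°C, against a fall of that size at 30°C. The difference between temperatures was not tested, since there is 1 library per strain and temperature. The dienelactone hydrolase family gene SPAC977.15 had 44.4 FPKM in fas S.j. against 1.83 in wild type at 24°C, a change of 4.01, and 5.44 against 13.9 at 30°C (-1.21). The cell surface glycoprotein gene pfl7 had a change of 1.13 at 24°C and of -0.53 at 30°C, at no more than 6.46 FPKM in any library. The dihydroxyacetone kinase gene dak2, a neighbour of SPAC977.15, had changes of 0.87 and -0.65. For bqt2 they were 0.74 and -0.81, at up to 3.26 FPKM. The SBDS family gene rtc3 was the only one of the 5 with high FPKM, at 462 in fas S.j. against 308 in wild type at 24°C (0.58) and 303 against 564 at 30°C (-0.89). Of the other 3 listed genes that were higher by at least 0.50 at 24°C, gem8 was listed at 0 in wild type at 24°C, and crs1 and cid11 had a mean FPKM below 1 at 30°C.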

How the results depend on the processing

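No paired analysis was possible because each strain has 1 library per temperature, so the strains share fewer than 2 replicate numbers. For the same reason no library could be left out. Of 26 alternative values for the main results, 20 stayed close to the reported ones (within 1.5 times for counts, 0.25 on the log2 scale for changes, 0.1 for correlations and the exact 95% binomial interval for shares). The count of 87 genes past the limit became 52 with a limit of 1 and 45 with only genes alone in their locus. The change of fas2 became -8.54 with a pseudocount of 0.1. Pearson's r between temperatures became 0.71 with fas1 and fas2 kept and 0.73 with a minimum mean FPKM of 10. The share of listed genes with CCAAT became 41.0% when only bases before the start were searched, beside 35.4% of all genes. Of 164 alternative values for single lists and motifs, 149 stayed close and 15 moved, and none changed sign. Among the 15, the share of mating genes listed was 61.5% for genes alone in their locus, and 0 of the 6 Mediator genes, 0 of the 8 respiratory assembly genes and 0 of the 3 galactose genes alone in a locus were listed. Values at 30°C that are absent from the table, and the depth of each library, set the limits of what can be said here.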

Other observations

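The 31 genes that are uncharacterized or could not be grouped included 13 past the limit. SPAC11D3.19, alone in its locus, had 1.58 FPKM in fas S.j. against 7.38 in wild type at 30°C (-1.70) and was lower at 24°C too (-1.03). SPBC13G1.15c, in a locus of 3 genes, had 1.35 against 6.04 (-1.58), and new20, alone in its locus, had 18.2 against 44.7 (-1.25). Genes of DNA repair and the cytoskeleton held 2 deep falls that were also lower at 24°C. The gene tip1, for a microtubule plus-end protein of the CLIP170 family, had 7.28 FPKM in fas S.j. against 25.4 in wild type at 30°C (-1.67) and 2.43 against 28.98 at 24°C (-3.13), in a locus of 2 genes. The DNA glycosylase gene mag2, of base excision repair, had 10.2 against 31.9 (-1.56) and 9.72 against 21.002 (-1.04).

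Among 11 signalling genes, 3 were past the limit and each encodes a kinase. They were ppk11, at 3.01 FPKM in fas S.j. against 7.46 in wild type (-1.08), ppk1 (-1.06) and psk1, for a kinase of the S6 kinase family, at 55.4 against 108 (-0.95). The changes of the 3 genes at 24°C were -0.46, -1.23 and -0.74. The secretory pathway, lipids and membranes group held 9 genes, all above -0.80 at 30°C and all lower in fas S.j. at 24°C, from sec1, for a protein that binds SNAREs (-0.79), to apq12, for a protein of nuclear membrane organization (-0.52).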
